A study of Rattus norvegicus with 8 samples.

Results

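The aorta of Brown-Norway (BN) neonates was compared with that of Fischer344 (F344) neonates. Members were chosen by label: the 2 arrays of BN aorta and the 2 of F344 aorta, 4 of the 8 arrays in the series. All animals were full-term newborns taken 1 h after birth (Day0), and no treatment or altered allele is named in the labels. The other 4 arrays hold the ductus arteriosus (DA), the fetal vessel between pulmonary artery and aorta, from the same strains and age, again with 2 arrays each. RNA came from pooled tissues, and whether the replicates are separate litters or pools is not stated in the labels, so the p-values speak only to the spread among these arrays, which may be technical.

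The wall of the large elastic arteries is built from concentric elastic lamellae, made of elastin on a fibrillin scaffold and cross-linked by lysyl oxidase, with smooth muscle cells between them. Much of this elastin and collagen is laid down around birth, when systemic pressure rises. The BN rat is an inbred strain known for breaks in the internal elastic lamina of its arteries and for a ductus that is slow to close, while F344 is an inbred strain often used beside it. A comparison of the aortas asks which transcripts separate the strains in a vessel that does not close after birth.

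Values are log2 expression values as deposited, so that a difference of 1 is 2-fold, and 14506 genes were tested. A gene was called at a limma adjusted p under 0.05 over all of them. The ± of a difference is the standard error of the fit, which pooled the spread of all 8 arrays. Smooth muscle, the main cell of the aortic wall, was checked by the contractile list, of which 18 of 19 tested members lay above the median of all values in aorta, with a list mean of 10.68 and 10.70 in F344 and 10.74 and 10.51 in BN. Tfap2b, a transcription factor of ductus smooth muscle, read 6.06 and 6.21 in F344 aorta and 5.51 and 6.75 in BN aorta, against 9.25 to 9.92 on the DA arrays. The thymocyte marker Cd3e read 5.49 and 5.50 in F344 aorta and 5.81 and 5.80 in BN aorta. Of 16 tested members of the thymocyte and lymphocyte list, 9 were higher in BN (49.3% of all genes were), and the list median was 0.02. The replicate pairs of F344 aorta and BN aorta differed by an SD of 0.196 and 0.258 over genes, and the BN DA pair by 0.349. Ribosomal protein genes averaged 10.86 and 10.83 in F344 aorta and 10.95 and 10.60 in BN aorta, so the BN replicates differed in them by more than the strains. The reference assembly of the rat is that of a BN animal, and strain differences in transcript level and in the sequence under a probe cannot be told apart here. Nor can fewer cells of a type and less RNA per cell be told apart in pooled tissue.

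Most genes differed little between the aortas of the strains, and few passed the test. Of 14506 genes, 23 were called (0.159%), 12 higher and 11 lower in BN, and the median difference of all genes was -0.003. The median size of a difference was 0.103, while the called genes differed by 0.905 to 2.24. The F344 and BN aorta arrays did not overlap for any of the 23, nor for 35.7% of all genes. At an unadjusted p under 0.05 there were 757 genes (5.22%), 378 higher and 379 lower. A difference of at least 2-fold without overlap was found for 36 genes (0.248%), 25 higher and 11 lower in BN. The count of calls rested on single arrays. It was 0 without F344 aorta replicate 1 or BN aorta replicate 1, 1 without F344 aorta replicate 2 (Scand1), 1 without BN aorta replicate 2 (Itga4), 8 without F344 DA replicate 1 or 2, and 69 on leaving out BN DA replicate 1, 2 or both (0.476%, 41 higher and 28 lower, all 23 among them). The DA arrays enter only through the shared estimate of the spread, and the sign of each of the 23 differences was kept under every alternative that measured it, which was all 21 for 21 of the genes, 20 for Eqtn and 19 for Vom1r17. This was largely fixed beforehand. Where the strains do not overlap, leaving out an aorta array cannot turn the sign, and most other alternatives leave the difference itself unchanged.

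**Figure D1:**
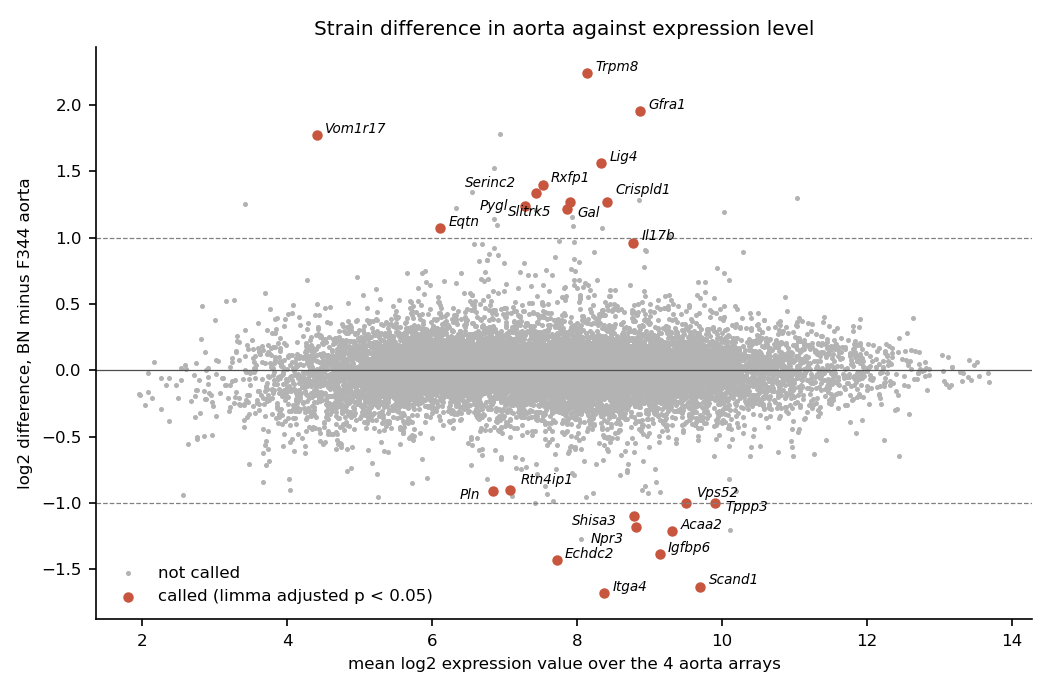
Each point is a gene, with its mean log2 expression value over the 4 aorta arrays on the x axis and its log2 difference, BN minus F344 aorta, on the y axis. The 23 called genes are red and named, and 37 of the 14506 genes lie on or beyond the dashed lines that mark 2-fold.

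The largest difference was that of Trpm8, the cold- and menthol-gated cation channel, which was 4.73-fold higher in BN aorta. It read 6.95 and 7.07 in F344 aorta and 9.35 and 9.15 in BN aorta, a difference of 2.24 ± 0.23 (adjusted p = 0.00948). Both BN arrays stood above both F344 arrays by a gap many times the spread within either pair. Gfra1, the co-receptor through which glial cell line-derived neurotrophic factor reaches the Ret kinase, was 3.88-fold higher in BN. Its values were 8.05 and 7.73 in F344 and 9.73 and 9.97 in BN, a difference of 1.96 ± 0.17 (adjusted p = 0.00739). Its ligand and kinase, which were looked at after these values were seen, were not called: Gdnf differed by 0.05 ± 0.20 and Ret by -0.08 ± 0.14 (adjusted p = 0.998 for both).

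The receptor for the hormone relaxin, Rxfp1, was also higher in BN aorta. Its values of 6.94 and 6.70 in F344 and 8.32 and 8.12 in BN gave a 2.64-fold difference (log2 1.40 ± 0.20, adjusted p = 0.0408). Galanin (Gal), a neuropeptide of sensory and autonomic nerves, read 7.29 and 7.22 in F344 and 8.26 and 8.68 in BN, a 2.33-fold difference (log2 1.22 ± 0.16, adjusted p = 0.0221). Il17b, a secreted cytokine of the interleukin-17 family, read 8.36 and 8.22 in F344 and 9.24 and 9.26 in BN, which is just under 2-fold (1.95-fold, log2 0.96 ± 0.12, adjusted p = 0.0195). For all 3 genes the lower BN array exceeded the higher F344 array, and the strains did not overlap for 35.7% of all genes either. The Gal receptors measured, again chosen after the fact, were not called: Galr1 differed by -0.14 ± 0.14, Galr2 by 0.24 ± 0.11 and Galr3 by 0.05 ± 0.14.

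A pair of enzymes was higher in BN. Lig4, the DNA ligase that seals breaks in non-homologous end joining, read 7.49 and 7.61 in F344 and 9.23 and 9.01 in BN (2.96-fold, log2 1.57 ± 0.22, adjusted p = 0.0298). Xrcc4, the partner that stabilises it, differed by 0.08 ± 0.17 and was not called. Pygl, the liver form of glycogen phosphorylase, read 6.74 and 6.58 in F344 and 7.97 and 7.83 in BN (2.36-fold, log2 1.24 ± 0.12, adjusted p = 0.00941). The strains were separated by more than 1 on the log2 scale for either enzyme at the closest arrays.

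A further 5 genes were higher in BN. Serinc2, of a family of serine-incorporating membrane proteins, read 6.74 and 6.78 in F344 and 7.91 and 8.29 in BN (2.53-fold, adjusted p = 0.0104). Slitrk5, a leucine-rich repeat membrane protein studied in neurons, read 7.09 and 7.44 in F344 and 8.41 and 8.66 in BN (2.42-fold, adjusted p = 0.0236). Crispld1, a secreted protein with cysteine-rich and LCCL domains, read 7.73 and 7.82 in F344 and 8.98 and 9.12 in BN (2.41-fold, adjusted p = 0.00941). Again neither strain's range reached the other's, as for 35.7% of all genes. Eqtn, known from the sperm acrosome, read 5.46 and 5.69 in F344 and 6.69 and 6.60 in BN (adjusted p = 0.0188). Vom1r17, a vomeronasal receptor, read 3.31 and 3.73 in F344 and 5.44 and 5.14 in BN (adjusted p = 0.0411). Both lay below the median of all values (7.01) in either strain, and the values of Vom1r17 are uncertain, since its probes can bind transcripts of related receptors.

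**Figure D2:**
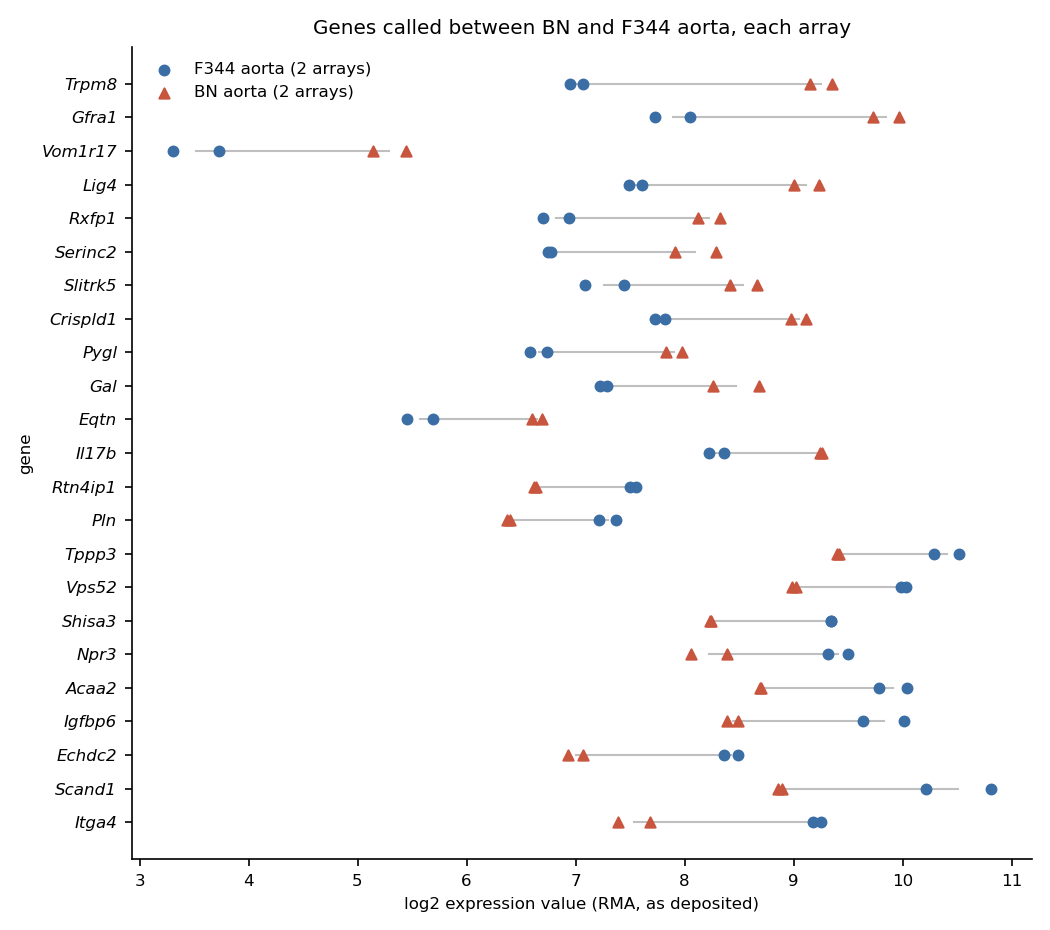
Log2 expression values (x axis) of the 23 called genes (y axis) on each aorta array, F344 as blue circles and BN as red triangles, with a grey line joining the group means. The strains do not overlap for any of these genes, nor for 35.7% of all genes. The widest gap is that of Trpm8, with 6.95 and 7.07 for F344 against 9.35 and 9.15 in BN.

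On the other side, the gene most reduced in BN aorta was Itga4, the integrin alpha 4 chain, which pairs with a beta chain to bind fibronectin and the endothelial ligand Vcam1. It read 9.18 and 9.25 in F344 and 7.39 and 7.68 in BN, 3.21-fold lower in BN (log2 difference -1.68 ± 0.14, adjusted p = 0.00739). The BN arrays lay more than 1 below the F344 arrays. Its usual partner Itgb1, looked at afterwards, differed by -0.07 ± 0.17, and Vcam1 by -0.30 ± 0.15, neither of them called.

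Npr3, the clearance receptor that takes up and degrades natriuretic peptides, was 2.27-fold lower in BN aorta. Its values were 9.31 and 9.50 in F344 and 8.39 and 8.06 in BN (log2 difference -1.18 ± 0.14, adjusted p = 0.0188). The signalling receptors for the same peptides were not called, with Npr1 at -0.24 ± 0.21 and Npr2 at -0.06 ± 0.14. In the fixed list on nitric oxide, natriuretic peptides and cGMP, Npr3 was the called member of 28 tested (0 higher, 1 lower), and the list median was 0.01. At an unadjusted p under 0.05 there were 6 members (21.4%, against 5.22% of all genes), 4 higher and 2 lower in BN. The subunits of soluble guanylate cyclase, the enzyme that makes cGMP in response to nitric oxide, read higher in BN without being called. Gucy1a1 differed by 0.55 ± 0.14 (adjusted p = 0.377) and Gucy1b1 by 0.55 ± 0.12 (adjusted p = 0.257).

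Phospholamban (Pln), the inhibitor of the calcium pump of the sarcoplasmic reticulum, was the called member of the contractile list (0 higher, 1 lower of 19 tested, list median -0.05). It read 7.22 and 7.37 in F344 and 6.37 and 6.40 in BN, 1.88-fold lower (log2 difference -0.91 ± 0.12, adjusted p = 0.0277). Both F344 arrays lay above both BN arrays by several times the spread within a pair. The pump itself, Atp2a2, differed by 0.10 ± 0.12, and the related inhibitor Sln by -0.03 ± 0.17. Igfbp6, a secreted binding protein with a preference for insulin-like growth factor 2, was the called member of the growth hormone and IGF list (0 higher, 1 lower of 21, list median -0.07). It read 10.02 and 9.64 in F344 and 8.49 and 8.39 in BN, 2.61-fold lower (adjusted p = 0.0176), while Igf2 differed by 0.10 ± 0.13 and Igf1 by 0.24 ± 0.40.

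Acaa2, Echdc2 and Rtn4ip1 encode mitochondrial proteins and were lower in BN. Acaa2, the thiolase of the last step of fatty acid beta-oxidation, read 10.04 and 9.78 in F344 and 8.69 and 8.71 in BN (2.32-fold lower, log2 difference -1.21 ± 0.14, adjusted p = 0.0159). Echdc2, which carries an enoyl-CoA hydratase domain, read 8.37 and 8.49 in F344 and 6.93 and 7.07 in BN (2.69-fold lower, log2 difference -1.43 ± 0.13, adjusted p = 0.00821). Rtn4ip1, an oxidoreductase, read 7.50 and 7.56 in F344 and 6.63 and 6.62 in BN (1.87-fold lower, adjusted p = 0.0195). The strains did not overlap for these 3 genes, as for all 23 called genes and 35.7% of all genes. Other mitochondrial genes on the lists were not called. Of 66 respiratory chain genes tested, 0 were called, 0 had an unadjusted p under 0.05, and their median was -0.06. In the fatty acid and lipid list, 1 of 51 members was called, which was Acaa2, and the median was 0.04.

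The other genes lower in BN belong to varied processes. Scand1, a SCAN domain protein thought to bind zinc finger factors, read 10.81 and 10.21 in F344 and 8.90 and 8.86 in BN (3.10-fold lower, log2 difference -1.63 ± 0.19, adjusted p = 0.0159). Shisa3, which holds Wnt and FGF receptors inside the cell, read 9.34 and 9.34 in F344 and 8.24 and 8.23 in BN (2.15-fold lower, adjusted p = 0.0104). Its replicates were nearly equal within each strain, and its difference stayed between -1.11 and -1.10 when each aorta array was left out. Vps52, a subunit of the complexes that tether vesicles from endosomes to the Golgi, read 9.98 and 10.03 in F344 and 9.02 and 8.99 in BN (2.00-fold lower, adjusted p = 0.0236). Tppp3, a tubulin-binding protein, read 10.52 and 10.29 in F344 and 9.40 and 9.42 in BN (2.00-fold lower, adjusted p = 0.0277). All 4 genes were bright in both strains, with no array under 8. By the naming rule 17 of the 23 genes were described. Pln came in through its list, and Tppp3, Rtn4ip1, Il17b, Eqtn and Vom1r17 were added after their values were seen, to complete the called genes.

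The DA arrays give a measurement of the same strains that shares no array with the aorta contrast. Both contrasts come from the same fit, though, and share the standard error of each gene. The labels do not say whether aorta and DA came from the same animals. The replicate differences of BN aorta and BN DA correlated at 0.52. In the DA 657 genes were called between the strains (4.53%), 353 higher and 304 lower in BN. Of the 23 genes called in aorta, 18 were called in the DA with the same sign, 11 higher and 7 lower, and 0 with the opposite sign. That is 78.3% of the aorta calls and 2.74% of the DA calls. Without single arrays the 18 became 0 or 1 where an aorta array was left out, 3 or 4 without an F344 DA array, and 39 or 36 without BN DA replicate 1 or 2. In the DA 19 of the 23 did not overlap between strains in the aorta direction, where 50.1% of all genes showed no overlap in either direction. The sign was the same in both vessels for 20 of the 23, against 59.6% of all genes. The strain difference in aorta was the larger for 17 of the 23, which their selection by the aorta difference favours. Over all genes the median size was 0.103 in aorta and 0.181 in the DA.

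Trpm8 was again far higher in BN in the DA, with values of 5.78 and 6.17 for F344 against 7.72 and 8.47 for BN, a difference of 2.12 ± 0.23. Itga4 read 8.57 and 8.75 in F344 DA and 6.93 and 7.08 in BN DA, a difference of -1.65 ± 0.14, next to -1.68 in aorta. Vps52 differed by -0.97 ± 0.13 in the DA, next to 2.00-fold lower in aorta, and Gal by 1.17 ± 0.16, next to 1.22. For these genes the strains were separated by nearly the same amount in both vessels. Crispld1, Serinc2, Lig4, Il17b, Eqtn and Vom1r17 had a somewhat larger difference in the DA (1.51, 1.63, 1.71, 1.15, 1.42 and 2.03) than in aorta. The difference was smaller in the DA for Scand1 (-0.89), Echdc2 (-0.90), Acaa2 (-0.79), Shisa3 (-0.58) and Rtn4ip1 (-0.64), and also for Gfra1 (1.64), Slitrk5 (0.82) and Pygl (0.54). Conversely, of the 657 genes called in the DA, 515 (78.4%, against 59.6% of all genes) had the same sign in aorta. The median size of the 657 was 0.183 in aorta and 0.788 in the DA, and their selection by the DA difference favours the latter. Over all 14506 genes the strain differences in aorta and DA had a Pearson correlation of 0.367 and a Spearman correlation of 0.296, across genes that are not independent.

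**Figure D3:**
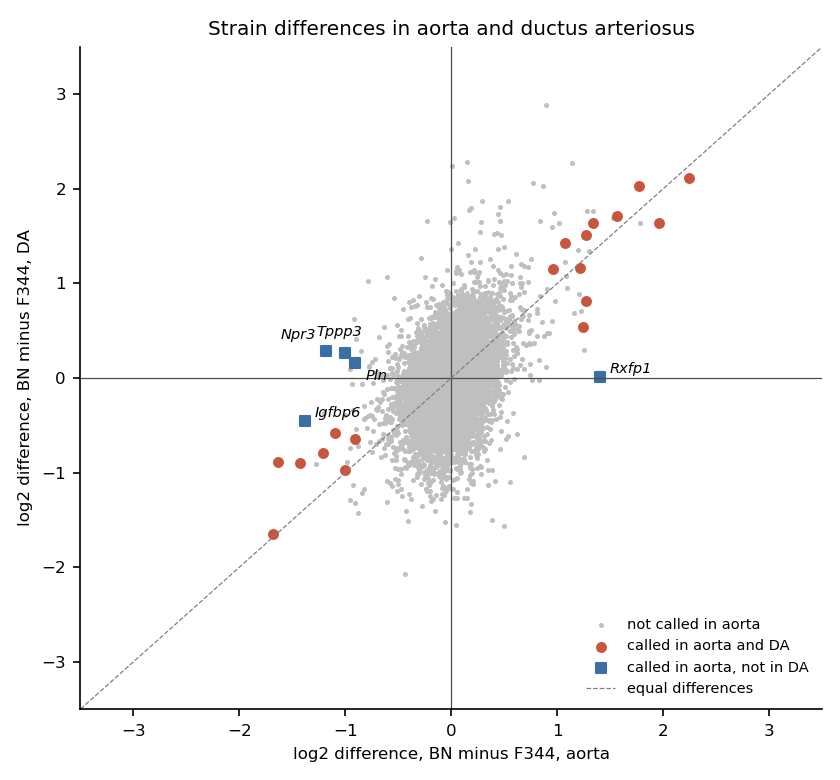
Each point is a gene, with its log2 difference BN minus F344 in aorta on the x axis and in DA on the y axis, and the dashed line marks equal differences. The 18 genes called in both vessels (red circles) lie in the quadrants of shared sign, and the 5 called in aorta alone (blue squares, named) lie nearer to 0 on the DA axis.

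The 5 aorta calls that were not called in the DA were Npr3, Tppp3, Pln, Igfbp6 and Rxfp1. Npr3 read 8.38 and 8.49 in F344 DA and 8.70 and 8.73 in BN DA, a difference of 0.28 ± 0.14, opposite in sign to aorta. Pln read between 7.15 and 7.41 on the 4 DA arrays (difference 0.16 ± 0.12), so that the BN aorta arrays (6.37 and 6.40) were the low ones of the 8. Tppp3 read 9.06 and 8.87 in F344 DA and 9.15 and 9.30 in BN DA, and here the F344 aorta arrays (10.52 and 10.29) were the high ones. Rxfp1 read 6.83 and 6.90 in F344 DA and 6.55 and 7.21 in BN DA, so only the BN aorta arrays, at 8.32 and 8.12, stood out. Igfbp6 differed by -0.45 ± 0.17 in the DA, in the aorta direction.

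Whether the strain difference itself differed between the vessels was tested by the interaction. With limma on all 8 arrays 0 genes were called, 1403 had an unadjusted p under 0.05, and the smallest adjusted p was 0.107. The difference of differences was -1.46 ± 0.20 for Npr3 (adjusted p = 0.107), -1.26 ± 0.19 for Tppp3 (0.143), -1.06 ± 0.18 for Pln (0.185), 1.39 ± 0.29 for Rxfp1 (0.278) and -0.93 ± 0.23 for Igfbp6 (0.284). Of the 23 aorta calls, 9 had an unadjusted interaction p under 0.05, against 1403 of all 14506 genes. The interaction includes the aorta difference by which the 23 were selected, so these 9 are no separate evidence. In this fit no strain difference was thus shown to belong to the aorta alone. The count changed when a BN DA array was left out. Such a fit keeps 1 array in that group, so its p-values hold no measure of the spread there. Without BN DA replicate 1 or 2, the difference of differences was -1.48 or -1.45 for Npr3 and -1.34 or -1.19 for Tppp3. It was -1.14 or -0.98 for Pln, 1.06 or 1.71 for Rxfp1 and -1.11 or -0.76 for Igfbp6.

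A further 17 genes were at least 2-fold apart without overlap and not called, 14 higher and 3 lower in BN. They were looked at because of their size, after the values were seen. Col8a1, a short-chain collagen of vessel intima and remodelling walls, read 10.68 and 10.75 in F344 and 9.81 and 9.21 in BN (log2 difference -1.20 ± 0.26, adjusted p = 0.239). Pcp4, a calmodulin-binding peptide, read 10.44 and 10.33 in F344 and 11.93 and 11.44 in BN (1.30 ± 0.23, adjusted p = 0.106). Lcn2, the iron-siderophore carrier lipocalin 2, read 5.72 and 6.04 in F344 and 7.35 and 7.09 in BN (1.34 ± 0.25, adjusted p = 0.133). The BN replicates of Col8a1 and Pcp4 lay further apart than those of F344. Alb, the serum albumin made by liver, had the largest of these differences (1.78 ± 0.58), but it came mainly from BN replicate 2 (8.85, against 6.81 in replicate 1, and 5.84 and 6.26 in F344). All 17 had the same sign in the DA (59.6% of all genes did), where 7 were called (4.53% of all genes were). In the fit without the BN DA arrays 13 of the 17 were called in aorta (0.476% of all genes were), Col8a1, Pcp4 and Lcn2 included. The 17 were picked for their size on these same aorta arrays, which favours calls in that fit. The other 11 genes higher in BN were Htra4, Or4p22, Folh1, Krt10, Rabggtb, Hbe1, Zfp347, RT1-Ba, Car12, Nkain3 and Prim1, with differences of 1.02 (Prim1, a primase subunit) to 1.29 (Htra4, a serine protease). The other 2 lower in BN were Tmem255b (-1.27 ± 0.25) and Birc2, an inhibitor of apoptosis (2.01-fold lower). Ahsp, the haemoglobin-stabilising protein of red cell precursors, was 2.88-fold higher in BN but overlapped between strains, with 6.85 and 5.32 in F344 aorta and 8.38 and 6.85 in BN aorta.

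Structural genes of the aortic wall gave no calls. Elastin (Eln) read 13.67 and 13.80 in F344 and 13.65 and 13.64 in BN, a difference of -0.09 ± 0.13. Fibrillin 1 (Fbn1) read 12.44 and 12.42 in F344 and 12.51 and 12.53 in BN (0.09 ± 0.12), and lysyl oxidase (Lox) 12.77 and 12.76 in F344 and 12.87 and 12.78 in BN (0.06 ± 0.12). The adjusted p was 0.998 for each, and the sizes were under 1.1-fold. Values such as those of Eln lie near the top of the range of the arrays, and whether the array compresses differences there was not tested. Over the elastic fibre list, 0 of 21 tested genes were called in either direction and the median was -0.06. Its outermost members were Fbln1, a fibulin of the matrix, at -0.52 ± 0.19 (adjusted p = 0.806) and Fbn2, the fibrillin prominent in fetal vessels, at 0.44 ± 0.17 (adjusted p = 0.854). The collagen list had 0 of 22 called and a median of -0.04. Col1a1, the main fibrillar collagen chain, differed by -0.08 ± 0.15 and Col3a1 by -0.06 ± 0.13, and apart from Col8a1 no member passed an unadjusted p of 0.05. The matrix list of proteases and inhibitors had 0 of 34 called, with Timp1 lowest at -0.65 ± 0.19 (adjusted p = 0.537), and that of proteoglycans 0 of 27, with Fmod highest at 0.68 ± 0.25 (adjusted p = 0.783). An unadjusted p under 0.05 was found for 7 of the 34 (20.6%, 3 higher and 4 lower in BN). It was found for 4 of the 27 (14.8%, 2 higher and 2 lower), against 5.22% of all genes.

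Smooth muscle genes likewise gave no calls beyond Pln. Acta2, the smooth muscle actin, read 13.66 and 13.69 in F344 and 13.64 and 13.66 in BN (-0.02 ± 0.11). Myh11, the smooth muscle myosin heavy chain, differed by -0.05 ± 0.18, and Myocd, the coactivator that drives contractile genes, by -0.06 ± 0.14. Of the 16 genes given regardless of their result, 0 were called, and the sizes of the other members were as follows in BN minus F344. Kcna5, a voltage-gated potassium channel, differed by -0.04 ± 0.21, and Agtr1a, the angiotensin II receptor, by 0.13 ± 0.13. Nos3, the endothelial nitric oxide synthase, read 9.26 and 9.46 in F344 and 9.11 and 8.85 in BN (-0.38 ± 0.22), and Ace, the angiotensin-converting enzyme, 10.16 and 10.05 in F344 and 9.87 and 9.58 in BN (-0.38 ± 0.20). For these 2 the strains did not overlap, as for Eln, Fbn1, Lox, Postn and Spp1 of the same 16 genes and 35.7% of all genes, and neither was called (adjusted p = 0.998). Postn, a matrix protein of remodelling tissue, read 12.41 and 12.40 in F344 and 12.71 and 12.67 in BN (0.28 ± 0.12, adjusted p = 0.945). Spp1, osteopontin, differed by 0.46 ± 0.21, B2m by 0.14 ± 0.21 and Cd74, the invariant chain of MHC class II, by 0.41 ± 0.38.

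Across all lists, 1285 of the 1485 listed genes were tested, and 5 were called (0.389%, against 0.159% of all genes), which were Gal, Npr3, Pln, Igfbp6 and Acaa2, each in a list of its own. The other 37 of 42 lists had 0 called members by limma. At an unadjusted p under 0.05 there were 126 listed genes (9.81%, against 5.22% of all genes), in lists drawn up with earlier results of these data known. In the fit without the BN DA arrays 13 listed genes were called, in 12 lists, and those added were Col8a1, RT1-Ba, Ifi27, Htr1b, Ptgr1, Nox4, Slc38a1 and Myl3. Ion channel lists had 0 of 49 (potassium) and 0 of 40 (calcium and TRP) called. Trpm8, described above, is a TRP channel that was called but is not a member of this list, whose highest difference was 0.32. In the first list, 4 members (8.16%) had an unadjusted p under 0.05, all higher in BN, led by Kcnmb1, the beta subunit of the large-conductance potassium channel, at 0.68 ± 0.15 (adjusted p = 0.252). In the second, 4 had one (10%) and all were lower, led by Trpc6, a receptor-operated cation channel, at -0.56 ± 0.12 (adjusted p = 0.257). List medians were 0.02 and 0.04, near that of all genes.

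Signalling lists showed small differences as well. In the prostaglandin list, 0 of 37 were called (median 0.08), with Ptgr1, a prostaglandin reductase, at 0.88 ± 0.14 (adjusted p = 0.0718) and the receptor Ptger4 at -0.88 ± 0.27 (adjusted p = 0.574). Of the 37, 7 had an unadjusted p under 0.05 (18.9%, against 5.22% of all genes), 4 higher and 3 lower in BN. In the vasoactive list, 1 of 55 was called (Gal, median 0.05), and the serotonin receptor Htr1b was next, with 8.49 and 8.47 in F344 aorta and 9.57 and 9.20 in BN aorta (0.91 ± 0.14, adjusted p = 0.061). In the list of FGF, PDGF and VEGF, 0 of 42 were called, the median was 0.11, and 8 members had an unadjusted p under 0.05 (19%, against 5.22% of all genes), 7 higher and 1 lower in BN. Pdgfc, a platelet-derived growth factor, led it with 8.58 and 8.49 in F344 and 9.07 and 9.56 in BN (0.78 ± 0.17, adjusted p = 0.258). The immediate early genes, which respond within minutes to stress and handling, had 0 of 34 called, a median of -0.13, and 5 members (14.7%) at an unadjusted p under 0.05, all lower in BN. The phosphatase Dusp1 read 11.16 and 11.01 in F344 and 10.58 and 10.36 in BN (-0.61 ± 0.14, adjusted p = 0.27). Matricellular proteins had 0 of 19 called, a median of -0.12, and 7 members (36.8%) at an unadjusted p under 0.05, 6 lower and 1 higher, among the lower Thbs1 at -0.58 ± 0.23 (adjusted p = 0.853).

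**Figure D4:**
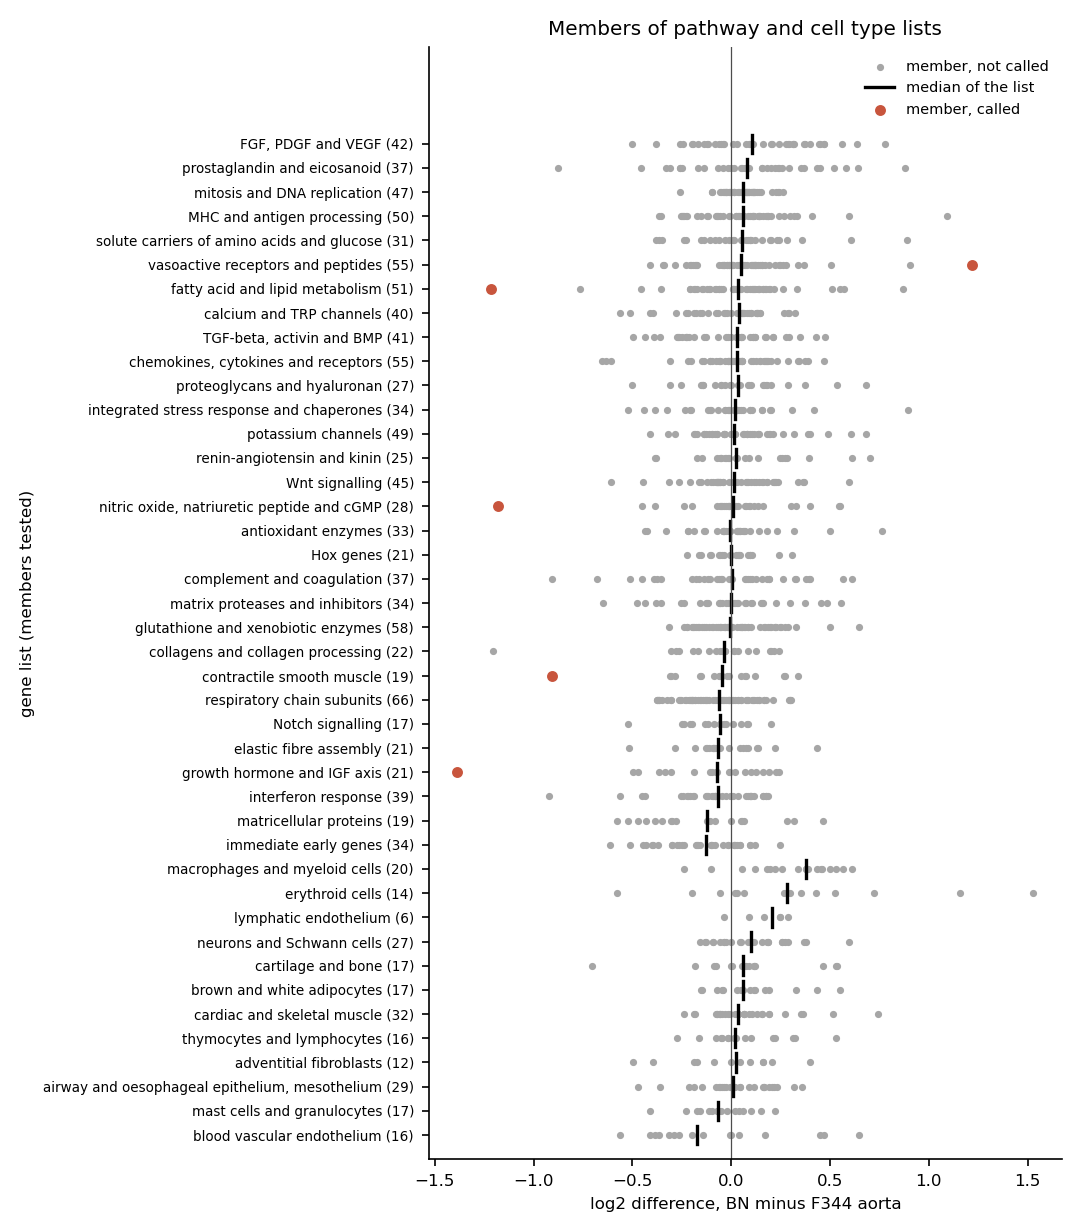
The log2 difference BN minus F344 aorta (x axis) of each tested member of the 42 lists (y axis, number of tested members in brackets), with the list median as a black bar and called members in red. Only 5 members are called, 1 each in 5 lists, and the medians of the pathway lists lie between -0.13 and 0.11, with the cell type lists below them reaching 0.38 for macrophages.

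No marker of another cell type was called: the 12 cell type lists had 0 called members, although the values of some lists leaned to one strain. Without the BN DA arrays 1 member was called, Myl3 of the cardiac and skeletal muscle list (0.74, adjusted p = 0.0473). Macrophage markers had a median difference of 0.38, with 18 of 20 tested members positive (49.3% of all genes were) and 6 at an unadjusted p under 0.05 (30.0%, against 5.22% of all genes). Their list mean was 7.63 and 7.36 in F344 aorta and 7.82 and 7.78 in BN aorta. Csf1r, the receptor that macrophages depend on, read 8.95 and 8.74 in F344 and 9.46 and 9.29 in BN (0.53 ± 0.21, adjusted p = 0.875), and C1qa, a complement component they make, differed by 0.56 ± 0.14 (adjusted p = 0.389). Blood vascular endothelium had a median of -0.17 with list means of 8.81 and 8.73 in F344 and 8.67 and 8.72 in BN, while Pecam1 differed by -0.14 ± 0.19 and Cdh5 by 0.00 ± 0.15. Its members went both ways, from -0.56 for Sox18 to 0.65 for Emcn. Of 16 tested, 3 had an unadjusted p under 0.05 (18.8%, against 5.22% of all genes), 1 higher and 2 lower in BN. Erythroid markers had a median of 0.28, and their list means (7.44 and 6.94 in F344, 7.80 and 7.23 in BN) overlapped. In the DA too, replicate 1 read higher than replicate 2 (7.98 and 7.29 in F344, 8.23 and 7.29 in BN). The cause of this was not tested. Lymphatic endothelium had a median of 0.20 with 5 of 6 tested members positive, and list means that overlapped, of 7.67 and 7.01 in F344 and 7.36 and 7.65 in BN. Mast cells and granulocytes had a median of -0.07. Lists of adventitial fibroblasts, thymocytes, neurons, adipocytes, cardiac and skeletal muscle, cartilage and bone, and epithelium had medians between 0.01 and 0.10. The part of these markers in the called differences was not tested.

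The MHC genes, which differ in sequence between rat strains, had 0 of 50 called and a median of 0.06. RT1-Ba, a class II alpha chain, read 6.54 and 6.17 in F344 and 7.59 and 7.30 in BN (1.09 ± 0.28, adjusted p = 0.386), and RT1-CE16, a class I gene, differed by 0.60 ± 0.17 (adjusted p = 0.486). Related RT1 copies can share probes, so single values are uncertain. In the interferon list 0 of 39 were called (median -0.07), with Ifi27 lowest, with 8.55 and 8.82 in F344 aorta and 7.86 and 7.66 in BN aorta (-0.92 ± 0.24, adjusted p = 0.414). The strains did not overlap for RT1-Ba or Ifi27, nor for 35.7% of all genes, and both were called in the fit without the BN DA arrays.

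Each of the 23 called genes was measured by 1 probe set. To see whether the differences extended along the chromosome, the nearest tested genes on either side, up to 2 each way in RefSeq order (GRCr8), were examined. Of 90 such neighbours 0 were called by limma and 0 were 2-fold apart, and their median size was 0.10, as for all genes (0.103). At an unadjusted p under 0.05 there were 11 (12.2%), against 5.22% of all genes. Of these 11, 7 went the same way as the called gene and 4 the opposite way. The same way went Slitrk6 (0.84 ± 0.32) and Slitrk1 (0.52 higher), of one family with their neighbour Slitrk5, Ring1, a polycomb ubiquitin ligase beside Vps52 (-0.41 ± 0.12), and Man1a1, a mannosidase beside Pln (-0.50 ± 0.13), besides Slc35f1, Tgds and Usp40. The opposite way went Vom1r15 beside Vom1r17 (-0.63), Pi15 beside Crispld1 (-0.53), Gask1b beside Rxfp1 (-0.41) and Atg5 beside Rtn4ip1 (0.27). Around each called gene, the neighbours examined differed by less than 2-fold.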

How the data were processed

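Total RNA of pooled tissue was labelled with biotin (150 ng per array, per the labels) and hybridised to Affymetrix Rat Gene 1.0 ST arrays. The deposited log2 values were made by the authors with RMA, per the submitters' processing notes, with version and settings not given in the sources used here. They were used as deposited. Of 29215 probe sets, 15310 had 1 gene symbol in the platform annotation of 2016, 323 several and 13582 none here. The brightest probe set of each gene was kept, which left 14506 genes. Of these, 14480 matched RefSeq (GRCr8) by Entrez identifier.

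The 4 groups of strain and tissue were fitted together over 8 arrays, 1 mean per group (limma 3.58.1, R 4.3.3, eBayes, 4 residual and 5.2 prior degrees of freedom). Tests were two-sided with Benjamini-Hochberg adjustment. The genes named were called, at least 2-fold, without overlap between strains, brighter than the median of all values in 1 strain and no chemosensory receptor or predicted gene, up to 14 on each side. Up to 4 called members of each list and 16 genes given regardless of result were added. The members, lists and rule were chosen with earlier results of these data known. The number of arrays limits the precision.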

Additional observations from a re-analysis of the deposited data

How the results depend on the processing

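With 2 arrays in a group, the number of arrays limits the precision. The 23 calls became 54 with array weights (33 higher, 21 lower) and 56 with the 4 aorta arrays alone (34 and 22), and 69 without both BN DA arrays (41 and 28), a fit added after the data were seen. Leaving out 1 array gave 0 to 69 calls (0 to 41 higher, 0 to 28 lower), 0 to 39 shared with the DA and 0 to 56 for the interaction, and 0 of the 23 genes stayed called through all 4 fits that each left out an aorta array. Mean-variance trend, robust moderation, no dim genes, repeated quantile normalization, cyclic loess, centring on brighter genes, the mean of probe sets and no chemosensory genes gave 18 to 31 calls. Centring kept 18 of the 23 genes and lost Gal, Pln, Rxfp1, Tppp3 and Vom1r17 (adjusted p = 0.0607 to 0.0774). Every probe set as its own test gave 22 calls, which kept only 10 of the 23 genes. Of the 22, 63.6% were higher in BN against 52.2% in the main fit. The share was 61.1% with array weights, 60.7% with the aorta arrays alone and 59.4% without BN DA. The replicate number as a block gave 30 calls, which kept 21 of the 23 genes and lost Rxfp1 (adjusted p = 0.0517) and Vom1r17 (0.0585). Of the 30, 23 were called in the DA too. The block gave 2 interaction calls where the fit without it gave 0, Nupr1 (-1.99, adjusted p = 0.0475) and Ppargc1a (-1.66, 0.0396), neither among the 23. The replicate differences of the 2 aorta groups correlated at 0.15 and those of all pairs of groups at 0.03 to 0.52. The highest, 0.52, was that of BN aorta with BN DA. The labels give a shared number only, and no pairing was assumed. Whether BN samples of the same number share a source was not tested. Signs turned only among genes that were not called, and for the called genes the lack of overlap largely fixed this beforehand. Repeated quantile normalization gave 0.077 for Acta2 and 0.023 for Eln. On leaving out 1 array, B2m ran from -0.068 to 0.347, Col1a1 from -0.153 to 0.002 (0.001 in a further fit), Col3a1 from -0.171 to 0.059 (0.030), Kcna5 from -0.076 to 0.003, Myh11 from -0.238 to 0.147 and Myocd from -0.125 to 0.006, each turning without an aorta array. The cause of these changes was not tested.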

Other observations

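The fit without the BN DA arrays, chosen after the data were seen, called 69 genes in aorta, and 54 of them were among the 56 called with the 4 aorta arrays alone. Genes called in both that were not called with 8 arrays include genes higher in BN, such as Ntf3, a neurotrophin (0.90, adjusted p = 0.0348 without BN DA), Dab1, an adaptor of reelin signalling (0.95, 0.0195), and Adgrl3, an adhesion receptor of synapses (0.81, 0.0213). They also include genes lower in BN, such as Cldn1, a tight junction claudin (-0.92, 0.00926), Lbp, the lipopolysaccharide-binding protein (-0.82, 0.014), Rbp4, the retinol carrier (-0.93, 0.0223), and Lama1, a laminin chain of basement membranes (-0.79, 0.0213). Nox4, the smooth muscle NADPH oxidase, was called without the BN DA arrays (0.76, adjusted p = 0.034) but not with the aorta arrays alone (0.058). These genes were picked from the calls by hand and stand for no group. The list of neurons and Schwann cells had 0 of 27 members called in the same fit.

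Tested probe set by probe set, 22 of 29215 were called in aorta. Of these, 11 had no single gene symbol in the annotation, 9 of them higher and 2 lower in BN, and they are unnamed here.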
